A study of Mus musculus with 4 samples.

Results

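The axon guidance ligands and receptors of 3 signaling systems were examined in the mouse neural stem cell (NSC) line NS-5. The members were all protein-coding genes of the mm9 annotation GENCODE vM1 named as ephrins (Efna, Efnb), Eph receptors (Epha, Ephb), semaphorins (Sema), plexins (Plxn), Slits or Robos, with Slitrk genes left out. These were 58 of 22238 protein-coding genes, namely 8 ephrins, 14 Eph receptors, 20 semaphorins, 9 plexins, 3 Slits and 4 Robos, or 31 ligands and 27 receptors. Each gene was taken by its name and not by a measured value, but the set was chosen with earlier results of these data known. ChIP-seq had been done with antibodies against Med1, Carm1 and Jmjd1c and with IgG as control, with 1 sample per antibody and 4 samples in all. All 4 samples came from the same untreated line, grown with EGF and FGF2 at 10 ng/mL each, and no genotype or treatment differed between them. Med1 is a subunit of Mediator, Carm1 an arginine methyltransferase and Jmjd1c a histone demethylase. There are no replicates, so no value carries a replicate error, no test between samples was possible and no p-value is given.

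Axon guidance molecules steer growing axons and migrating neurons by attraction or repulsion. Ephrins are ligands bound to the cell surface that activate Eph receptor tyrosine kinases on the neighboring cell, and in neural progenitors they are known to take part in proliferation and in the placing of cells. Semaphorins are secreted or membrane-bound ligands of plexins, class 3 acting mostly through neuropilin co-receptors, and Slits are secreted ligands of Robo receptors. Binding of Med1 near a gene does not measure its expression, and none of these values says whether a gene was transcribed.

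The deposited files hold 19956 Med1, 8759 Carm1 and 8078 Jmjd1c sites as positions without heights, and 8089 enhancer regions, which the authors took from Ep300 and H3K27ac and joined with ROSE, and of which 445 are super enhancers (SEs) and the others typical enhancers. For each ROSE region they give Med1 and IgG signal, a read density scaled to mapped reads and summed over the region, and the rank by Med1 minus IgG. No source used here gives read totals, so the depth is unknown. Med1 sites were also read at the promoters of cell type markers. Of 9 NSC marker genes 8 had a Med1 site within 1.5 kb of the 5′ end (not Pax6), against 1 of 5 neuronal markers (Tubb3), 0 of 3 endothelial and 0 of 3 microglial markers. Over all protein-coding genes the share was 41.6%. With so few markers, these counts do not identify the cells. The 58 members had 174 of the 36793 sites at their promoters or in their bodies, and 68 of the 8089 ROSE regions lay nearest to a member's 5′ end. The grid of counts by gene gives the number of sites and regions for each of the 58.

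**Figure D1:**
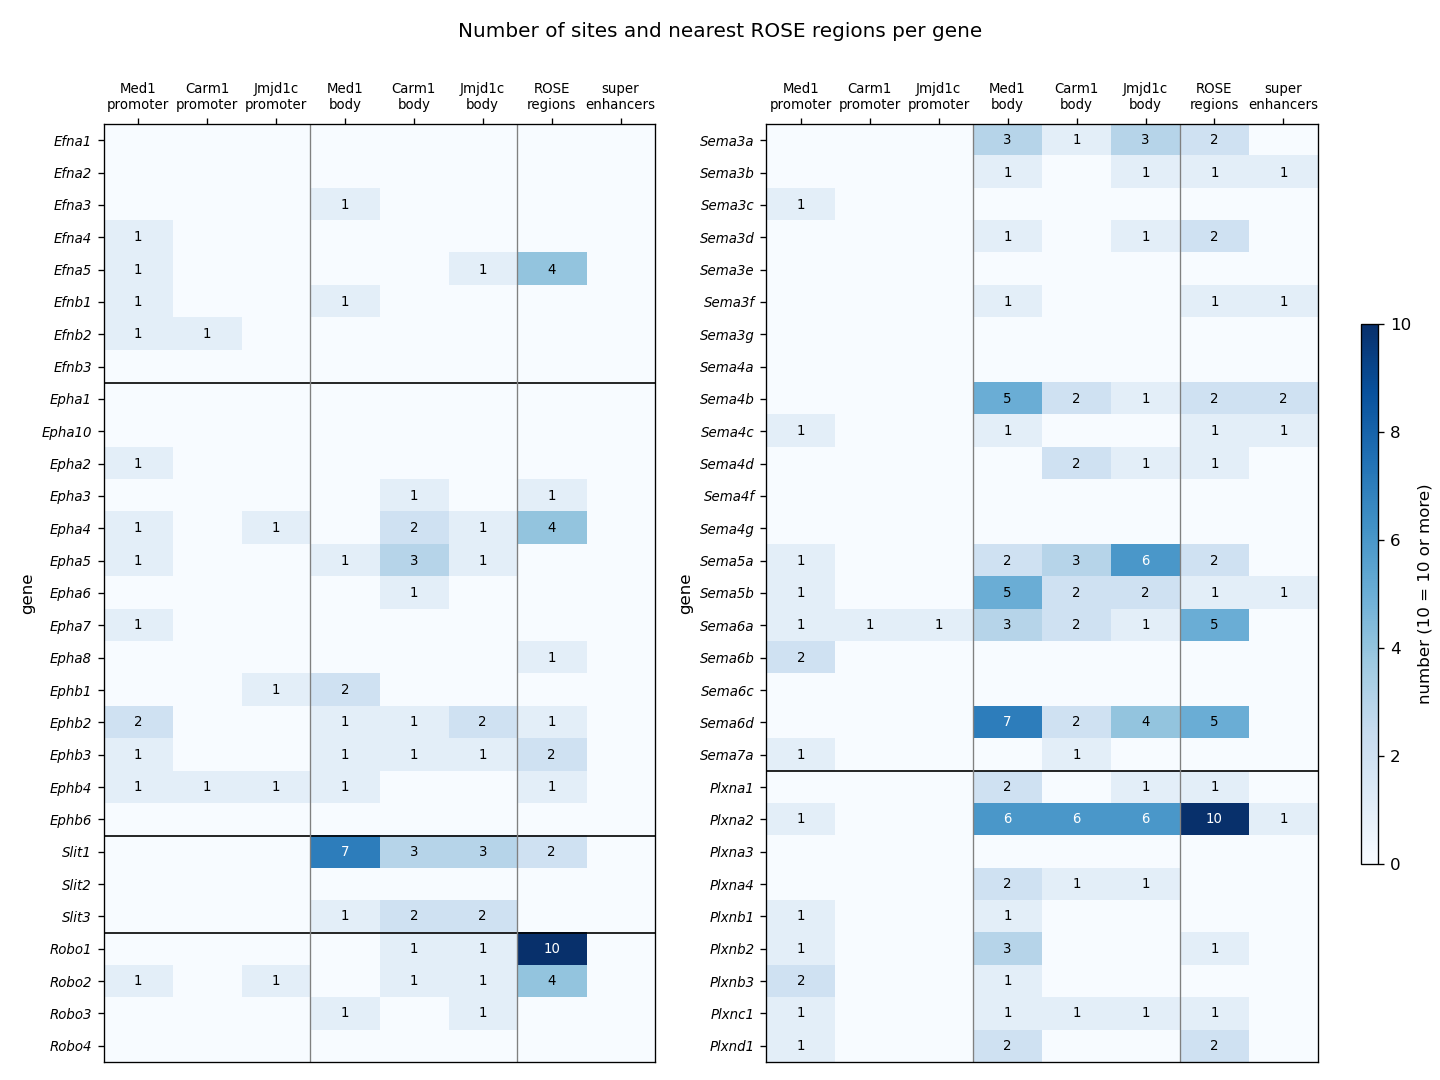
Number of Med1, Carm1 and Jmjd1c sites at the promoter (within 1.5 kb of the 5′ end) and in the rest of the gene body, and of ROSE regions and SEs nearest to the 5′ end, for each of the 58 genes. Empty cells are 0. Semaphorins hold 6 of the 7 SEs, Plxna2 and Robo1 have 10 regions each, and 15 genes have an empty row.

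Windows of 201 bp are shown here for the places where sites of all 3 factors met at an SE or promoter of a member. Each window is centered on the overlap of a Carm1 and a Jmjd1c site inside a Med1 site, and was read from the mm9 genome. Capitals mark matches on either strand of the E-box CAGNTG, of the SOX motif ACAAAG or its variant with the letters ACAATG, and of the nuclear factor I (NFI) core TTGGC. Such motifs are bound by transcription factor families that are abundant in NSCs, and a match is a description of the letters only. Matches of different motifs could overlap and were counted separately. Of the 2459 windows of this kind in the whole genome, 1382 held an E-box (56.2%), 964 a SOX motif (39.2%) and 1329 an NFI core (54.0%).
Sema4c SE, chr1:36646226-36646426, + strand: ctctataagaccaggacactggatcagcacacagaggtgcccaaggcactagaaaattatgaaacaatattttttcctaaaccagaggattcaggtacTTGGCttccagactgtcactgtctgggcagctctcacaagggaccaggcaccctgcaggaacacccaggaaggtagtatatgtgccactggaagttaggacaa
Plxna2 SE, chr1:196573056-196573256, + strand: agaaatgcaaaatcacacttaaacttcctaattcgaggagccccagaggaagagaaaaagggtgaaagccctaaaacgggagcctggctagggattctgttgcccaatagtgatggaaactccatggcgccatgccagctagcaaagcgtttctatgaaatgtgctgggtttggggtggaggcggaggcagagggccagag
Sema5b SE, chr16:35614130-35614330, + strand: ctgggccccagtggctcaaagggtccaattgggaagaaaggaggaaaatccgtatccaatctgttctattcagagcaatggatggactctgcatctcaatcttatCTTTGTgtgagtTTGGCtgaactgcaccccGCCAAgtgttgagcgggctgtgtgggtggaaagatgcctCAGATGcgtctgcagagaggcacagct
Sema4b SE, chr7:87316363-87316563, + strand: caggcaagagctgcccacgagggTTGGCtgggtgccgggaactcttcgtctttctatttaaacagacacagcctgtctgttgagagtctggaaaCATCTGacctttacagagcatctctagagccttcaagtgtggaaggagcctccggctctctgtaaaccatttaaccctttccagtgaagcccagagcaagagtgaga
Ephb4 promoter, chr5:137790923-137791123, + strand: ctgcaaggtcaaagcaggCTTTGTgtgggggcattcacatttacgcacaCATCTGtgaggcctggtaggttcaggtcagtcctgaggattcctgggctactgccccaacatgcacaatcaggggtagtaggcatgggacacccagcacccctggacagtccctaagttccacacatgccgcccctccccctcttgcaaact
The Sema5b window lies in an intron of the gene, 72999 bp downstream of its 5′ end, and held 1 E-box, 1 SOX motif and 2 NFI cores. The Sema4b window lies 15264 bp upstream of its gene and held 1 E-box and 1 NFI core. The Sema4c window, 31132 bp upstream of Sema4c and within Fam178b, held 1 NFI core. The Ephb4 window is centered 314 bp upstream of the 5′ end and held 1 E-box and 1 SOX motif. The Plxna2 window, in an intron 127133 bp from the 5′ end, held none of these letters. The 5 windows thus differed in motif content, and no motif was in all of them. Sema6a also had sites of all 3 factors at its promoter, and its sequence is not shown.

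SEs were nearest to a larger share of the members than of all genes. Of the 58 genes, 6 were nearest to an SE (10.3%, 95% Wilson interval 4.83 to 20.8), against 1.8% of all protein-coding genes. The interval covers the counting of genes only, here and below, and genes are not independent replicates. Of these 6 genes 5 were semaphorins, Sema4b, Sema5b, Sema4c, Sema3f and Sema3b, and the other was the plexin Plxna2. Sema4b had 2 SEs, so that 7 of the 68 regions of members were SEs (10.3%, 5.08 to 19.8), against 5.5% of all ROSE regions. No SE was nearest to any of the 8 ephrins, 14 Eph receptors, 3 Slits or 4 Robos. With a share of 1.8% over all genes, a count of 0 among so few genes does not set these families apart. Among genes under 100 kb long, 4 of 34 members had an SE (11.8%, 4.67 to 26.6) against 1.62% of all genes of that class, and among longer genes 2 of 24 (8.33%, 2.32 to 25.9) against 3.29%. The count of SEs was 4 in place of 7 where an SE had to overlap the gene, and likewise 4 where regions were ranked per kb.

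Sema4b, a transmembrane semaphorin of class 4, had the SE of the highest rank among the members. Its rank was 63 of 445, at chr7:87333320-87344538 within the gene, with 10898 of Med1 signal against 2607 of IgG. Per kb this was 971.4 for Med1 and 232.4 for IgG, so Med1 was 4.18-fold above IgG. It held 3 Med1 sites and 2 Carm1 sites, both Carm1 sites inside the widest of the Med1 sites (4394 bp), and no Jmjd1c site. The other SE of Sema4b, of rank 361 at chr7:87294161-87317692, had its middle 25801 bp upstream of the 5′ end and per kb signals of 245.4 for Med1 and 84.2 for IgG. It held 4 Med1 sites and 1 site each of Carm1 and Jmjd1c, which met in the window shown above. For this region Idh2 was the next protein-coding gene, 45648 bp away. A further region within Sema4b, of rank 2274, lay nearer to the 5′ end of Cib1. Sema4b had no site of any factor within 1.5 kb of its 5′ end, but a Med1 site began 1.587 kb downstream, just beyond that window.

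Sema5b, a membrane-bound semaphorin with thrombospondin repeats, had an SE of rank 200 in its own introns at chr16:35587713-35625492. It was the longest member region, 37780 bp joined from 6 enhancers. Its Med1 signal of 8013 was set against an IgG signal of 2811, which per kb was 212.1 for Med1 and 74.4 for IgG. Within it were 5 Med1, 2 Carm1 and 2 Jmjd1c sites, and 4 of the 5 Med1 sites ranged from 824 to 1200 bp in width and the fifth, which held both other factors, was 1904 bp wide. The promoter of Sema5b had a Med1 site of 2264 bp as well. The next gene, Pdia5, had its 5′ end 115643 bp from the middle of the SE, against 65371 bp for Sema5b.

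Sema4c, a ligand of the receptor plexin B2, was the gene nearest to the SE of rank 226 at chr1:36645343-36665085, whose middle was 40020 bp upstream. This SE held 3 Med1, 2 Carm1 and 2 Jmjd1c sites, with Med1 at 397.3 and IgG at 152.4 per kb. It lay within the gene Fam178b, whose own 5′ end was 84814 bp away, and Ankrd39 was at 51168 bp. Which of these genes the region acts on was not tested. The Sema4c promoter had a Med1 site of 3926 bp, among the widest at members. Plxnb2 itself had 3 Med1 sites, of which the widest, of 3012 bp, reached from the promoter into the body, and a typical enhancer of rank 2727 within the gene.

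Sema3f and Sema3b, secreted semaphorins that signal through neuropilins, lie near each other on chromosome 9 and had an SE each. The SE of Sema3f, of rank 266 at chr9:107603884-107627578, ran across the 5′ end of the gene and held 3 Med1 sites, with no Carm1 and no Jmjd1c site. Its per kb signals were 249.1 for Med1 and 61.8 for IgG. The SE of Sema3b, of rank 322 at chr9:107512784-107518245, was 5462 bp long and upstream of the gene. It held 1 Med1 site with 1 Carm1 site inside it, and Med1 at 862.0 per kb was 6.71-fold above IgG at 128.4 per kb, the highest ratio among the 7 SEs. Neither gene had a Med1 site within 1.5 kb of its 5′ end. For the SE of Sema3b, the 5′ end of BY080835 was 16108 bp and that of Gnai2 22159 bp from the middle, against 3954 bp for Sema3b.

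Plxna2, a receptor for class 3 semaphorins together with neuropilins and for class 6 semaphorins directly, was the only receptor with an SE. Its SE, of rank 418 at chr1:196565187-196575574, lay within the gene 124357 bp from the 5′ end and held 2 Med1, 2 Carm1 and 3 Jmjd1c sites. Per kb, Med1 was 535.2 and IgG 202.2. It was the lowest in rank among the 7, with 445 as the last rank of an SE. Plxna2 had a Med1 site of 3102 bp at its promoter, and was the gene nearest to 10 regions in all. As a group, the 7 SEs had a median Med1 signal per kb of 397.3, against 499.0 in all SEs, and a median Med1-to-IgG ratio of 2.91 against 3.83. The map of the 6 genes places their sites and SEs relative to the 5′ end.

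**Figure D2:**
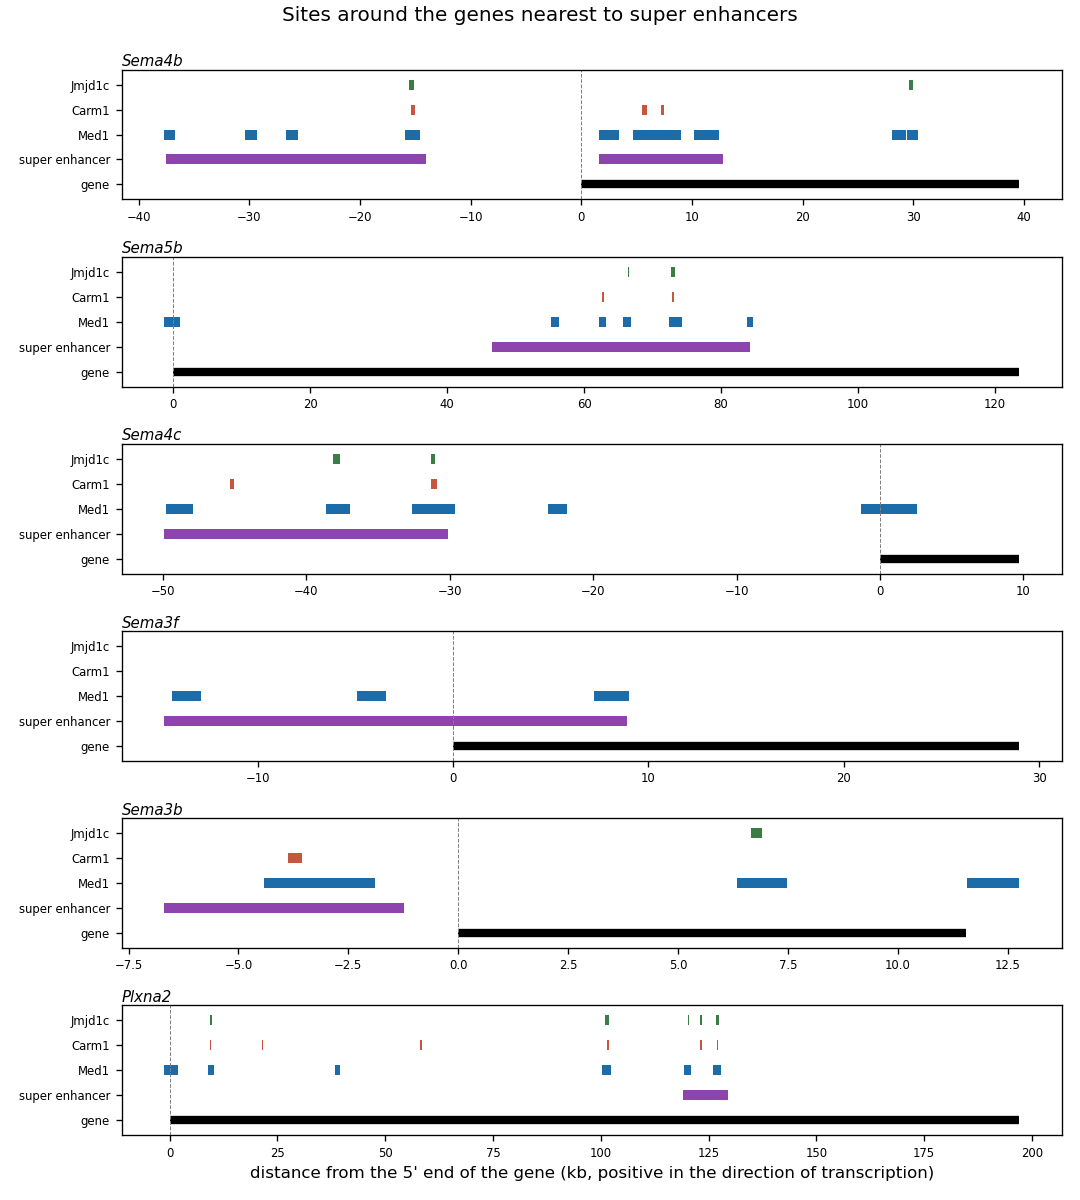
Med1, Carm1 and Jmjd1c sites and SEs around the 6 genes nearest to SEs, with the distance from the 5′ end in kb on the x axis, positive in the direction of transcription, and a bar for each site, SE and gene. The dashed line is the 5′ end. Sema4b, Sema5b and Plxna2 have an SE within the gene, the SE of Sema3f spans its 5′ end, and those of Sema4c and Sema3b lie upstream.

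At promoters, the members were close to all genes in their share of Med1 sites. A Med1 site lay within 1.5 kb of the 5′ end in 25 of 58 members (43.1%, 31.2 to 55.9), against 41.6% of all protein-coding genes. The count was 14 with the first 10000 sites of the list, and 29 where the 5′ end of any transcript was allowed. The share of all genes was not taken under these settings. Plexins had 6 of 9 and Eph receptors 7 of 14, whereas semaphorins had 7 of 20, Robos 1 of 4 and Slits 0 of 3. Ephrins had 4 of 8. By role, 14 of 27 receptors and 11 of 31 ligands had a Med1 site. All 3 plexin B receptors had one, Plxnb1, Plxnb2 and Plxnb3, whose known ligands include Sema4d, Sema4c and Sema5a. Of these ligands, Sema4c and Sema5a had a promoter Med1 site and Sema4d had none.

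Many members have promoters rich in CpG, and within that class fewer had Med1 than among all genes. The ratio of observed to expected CpG within 500 bp of the 5′ end was 0.6 or more in 42 of 58 members (72.4%) and in 45.7% of all genes. In these, Med1 was found in 23 of 42 members (54.8%, 40.0 to 68.8), against 72.8% of all genes of the class. The 19 CpG-rich members without a promoter Med1 site included the 3 Slits, Robo1, Plxna1, Plxna4, Sema4b, Sema6d, Ephb1 and Epha3. With a ratio under 0.6, Med1 was found in 2 of 16 members (12.5%, 3.50 to 36.0), Robo2 and Plxnb3, against 15.3% of all genes. A promoter site could not always be given to the member alone. The site of Efna4 also lay in the window of the protease gene Adam15 and those of Efnb2 in that of 4921522P10Rik.

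The widths of the 28 promoter Med1 sites ran over a range of 814 to 5207 bp with a median of 1850 bp, against 1784 bp at all promoters. The widest was at Sema6a, a transmembrane ligand of plexins A2 and A4. It was followed by Plxnb1 with 4198 bp, the GPI-anchored ephrin Efna5 with 3995 bp and Sema4c with 3926 bp. The narrowest, of 814 bp, was the smaller of 2 sites at Ephb2, an EphB receptor.

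Carm1 and Jmjd1c were at few promoters, among the members as among all genes, and both intervals included the share of all genes. Carm1 had a site at 3 of 58 (5.17%, 1.78 to 14.1), against 9.78% of all genes, and Jmjd1c at 5 of 58 (8.62%, 3.74 to 18.6), against 8.62%. The Carm1 genes were Ephb4, Sema6a and Efnb2, the last being ephrin-B2, the ligand of EphB4. The Jmjd1c genes were Ephb4, Sema6a, Epha4, Robo2 and Ephb1. Sites of all 3 factors were at Ephb4 and Sema6a, 2 of 58 (3.45%, 0.951 to 11.7) against 2.44% of all genes. At Ephb4, on chromosome 5, the Med1 site of 1801 bp contained the Carm1 site of 449 bp and the Jmjd1c site of 395 bp, which overlapped each other by 336 bp. At Sema6a, Carm1 was centered 351 bp and Jmjd1c 903 bp upstream of the 5′ end, both inside the Med1 site and apart from each other. The count of promoters was 6 for Carm1 and 8 for Jmjd1c where the 5′ end of any transcript was allowed. Ephb1 was the exception among the 6 genes with either factor, with a Jmjd1c site of 243 bp and no Med1 site at the promoter.

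No factor had a site at the promoter of 32 of 58 members (55.2%, 42.5 to 67.3), against 56.2% of all genes. No site of any factor at the promoter or in the body was found in 16 of 58 (27.6%, 17.8 to 40.2), against 47.2%. This share includes the body and was not taken by length class, while the members are longer (median 38230 bp against 15510 bp). Of these 16, the receptor Epha8 was still nearest to a ROSE region and the other 15 had neither. They were the ephrins Efna1, Efna2 and Efnb3, the semaphorins Sema3e, Sema3g, Sema4a, Sema4f, Sema4g and Sema6c, the ligand Slit2, the Eph receptors Epha1, Epha10 and Ephb6, the plexin Plxna3, and Robo4, a receptor known from endothelium. Families were split in this way, with Slit1 among the genes with most sites and Slit2 with none.

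In gene bodies, taken as the gene beyond 1.5 kb from its 5′ end, sites of every factor were found in more members than in all genes. Med1 sites were in 28 of 58 (48.3%, 35.9 to 60.8) against 22.5%, Carm1 sites in 21 (36.2%, 25.1 to 49.1) against 10.2%, and Jmjd1c sites in 23 (39.7%, 28.1 to 52.5) against 9.52%. Members are long genes, with a median length of 38230 bp against 15510 bp, and longer genes hold more sites. With the wider sites of each list alone, 15 members had a Med1 and 14 a Jmjd1c body site, and the share of all genes was not taken there. Of the 64 Med1 body sites, 56 did not reach the promoter window. Members were therefore compared by length class. Of 24 members of 100 kb or more, 17 had a Carm1 site (70.8%, 50.8 to 85.1) against 44.4% of all such genes, and 17 a Jmjd1c site (70.8%, 50.8 to 85.1) against 42.2%. For Med1 the count was 14 of 24 (58.3%, 38.8 to 75.5) against 56%. Of 34 members under 100 kb, 14 had a Med1 site (41.2%, 26.4 to 57.8) against 18.4%, 4 a Carm1 site (11.8%, 4.67 to 26.6) against 6.1%, and 6 a Jmjd1c site (17.6%, 8.35 to 33.5) against 5.56%. Members were above all genes for each factor in both classes, by little for Med1 in long genes. The intervals for Med1 in long genes and for Carm1 in shorter ones included the share of all genes, and differences between the classes were not tested.

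**Figure D3:**
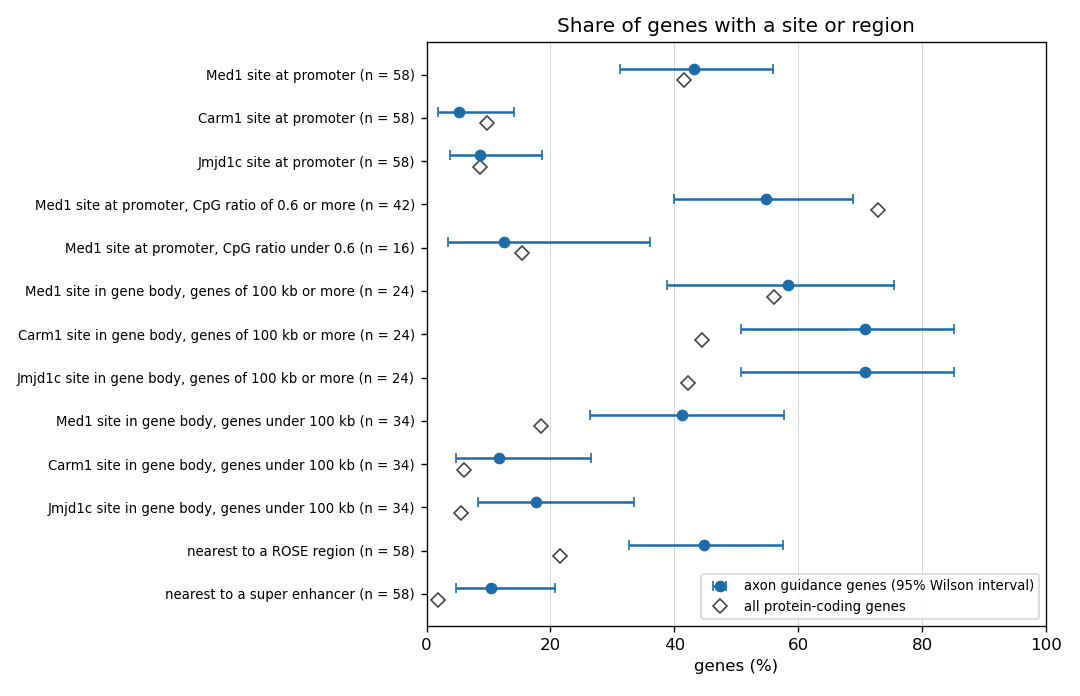
Share of genes in percent with a site or region, for the axon guidance genes (filled circles, 95% Wilson intervals, number of genes on the axis) and all protein-coding genes (open diamonds). The promoter shares of the 3 factors over all 58 genes lie near the diamonds, Med1 at CpG-rich promoters lies below it, and body sites of Carm1 and Jmjd1c in long genes, of all 3 factors in shorter genes, and ROSE regions and SEs lie above.

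Even in the class of 100 kb or more, the members were longer than all genes, with a median of 298900 bp against 166900 bp. Body sites were also counted per 100 kb of gene length, the first 1.5 kb included. By this measure the long members had 0.416 Carm1 sites (exact Poisson 95% interval 0.286 to 0.584) against 0.320 in all long genes, and 0.466 Jmjd1c sites (0.328 to 0.642) against 0.336. For Med1 the density was 0.529 against 0.605. Both intervals reach down to the density of all long genes, so per length the difference was smaller than in the share of genes with a site. Without Plxna2, the densities of the other 23 long members were 0.349 for Carm1 and 0.400 for Jmjd1c. In the members under 100 kb, Med1 sites were found at 2.83 per 100 kb against 1.22, Carm1 at 0.771 against 0.341 and Jmjd1c at 0.771 against 0.320. These densities rest on 22 Med1, 6 Carm1 and 6 Jmjd1c sites, and no interval was taken for them. Sema4b alone gave 5 of these Med1 and 2 of these Carm1 sites.

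Of 146 body sites, 64 were in the 5 genes with most sites, and 36 of the 58 members had at least 1. The 5 were picked by this count and are each over 100 kb long. No such share was taken over all genes, so the counts are a description only. Plxna2 had the most, with 6 of each factor over 197041 bp. At 3 places in Plxna2 all 3 factors met, centered near 9643 bp, 101303 bp and 126919 bp from the 5′ end by their Med1 sites, the last inside the SE. Carm1 and Jmjd1c also met within that SE without Med1, at 123209 bp.

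Slit1, a secreted repellent that binds Robo receptors, had 7 Med1, 3 Carm1 and 3 Jmjd1c sites, all in introns. The Carm1 sites all lay inside Med1 sites between 45931 and 55267 bp from the 5′ end, and at 49679 bp the Med1 site held Jmjd1c as well. Slit1 had no site at its promoter, and its 2 nearest regions had a best rank of 1140. The other region, just upstream of the promoter window, had the highest Med1 signal per kb of the 68, 1308.7, with IgG at 226.7. Slit3 had 1 Med1, 2 Carm1 and 2 Jmjd1c body sites over 587284 bp and was not nearest to any region.

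The other genes with most body sites were semaphorins of classes 5 and 6. Sema6d, a transmembrane ligand of plexin A1, had 7 Med1, 2 Carm1 and 4 Jmjd1c sites over 577802 bp, with no site at its promoter. Its sites lay far downstream of the 5′ end of the whole gene, the nearest of them centered at 72599 bp. All 3 factors met near 279761 bp in a typical enhancer of rank 1045. A Med1 site of 2229 bp that shared a Carm1 site lay in a UTR at 520465 bp. Starts of shorter transcripts inside the gene were not marked, so a body site may lie at one. Sema5a, like Sema5b a semaphorin with thrombospondin repeats, had 2 Med1, 3 Carm1 and 6 Jmjd1c sites. It differed from the others in that 4 of its 6 Jmjd1c sites shared no site of another factor, and all 3 factors met at 1 place, near 20871 bp. Sema5b had 5 Med1, 2 Carm1 and 2 Jmjd1c body sites, all in or at the edge of the SE described above. Sema4b followed with 8 body sites in all and Sema3a, a repellent that acts through neuropilin-1, with 7.

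Some members had Carm1 or Jmjd1c in the body where Med1 was not found. Body sites of Carm1 or Jmjd1c and none of Med1 were found in 6 of 24 long members. They were the receptors Epha3, Epha4, Epha6, Robo1 and Robo2 and the ephrin Efna5. The share of all long genes is not given, so the count is a description only. The Carm1 sites of Epha3, Epha4 and Epha6 were 236 bp wide, the lower quartile of all Carm1 sites outside promoters. Those of Robo1 and Robo2 were 363 and 527 bp wide. The 9 EphA receptors together had 7 Carm1, 2 Jmjd1c and 1 Med1 body sites. In Epha5, 1 of 3 Carm1 sites met the only Med1 and Jmjd1c sites of the body, at 264167 bp, and the other Carm1 sites stood alone. The 5 EphB receptors had 5 Med1, 2 Carm1 and 3 Jmjd1c body sites, of which 6 were in the 2 long genes Ephb1 and Ephb2. The plexin B receptors had 5 Med1 body sites and none of Carm1 or Jmjd1c, and plexin A receptors had 10 Med1, 7 Carm1 and 8 Jmjd1c sites. Of the plexin A sites, 6 of each factor were in Plxna2, and Plxna3 had none. Plxnb1, Plxnb2 and Plxnb3 each had a Med1 body site that reached in from the promoter window. Plexin B genes are short (median 24476 bp) next to plexin A genes (121670 bp), and the counts were not adjusted for this.

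Most body sites were intronic, namely 55 of 64 Med1, 37 of 39 Carm1 and 42 of 43 Jmjd1c sites. Sites of different factors were taken as shared where they overlapped by at least 1 bp. Of the Med1 body sites 28 of 64 shared a Carm1 or Jmjd1c site (43.8%, 32.3 to 55.9), against 38.3% over all genes, and 15 of them shared both. Of the Carm1 sites 28 of 39 shared another factor (71.8%, 56.2 to 83.5) against 63.5%, and of the Jmjd1c sites 30 of 43 (69.8%, 54.9 to 81.4) against 72.8%. At promoters, 5 of the 28 Med1 sites shared another factor (17.9%, 7.88 to 35.6), against 32.2% of the 8279 promoter Med1 sites of all genes. Carm1 and Jmjd1c met without Med1 at 7 of 39 Carm1 sites (17.9%, 8.98 to 32.7), against 10.9% of the Carm1 body sites of all genes. All of these intervals included the share of all genes.

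ROSE regions were nearest to 26 of 58 members (44.8%, 32.8 to 57.6), against 21.6% of all genes. In long genes this was 15 of 24 (62.5%, 42.7 to 78.8) against 49.4%, and in shorter genes 11 of 34 (32.4%, 19.1 to 49.2) against 18.2%. Semaphorins had 23 of the 68 regions at 11 genes, plexins 15 at 5, Robos 14 at 2, Eph receptors 10 at 6, ephrins 4 at 1 and Slits 2 at 1. At least 3 regions each were nearest to 7 members (12.1%, 5.97 to 22.9), against 3.32% of all genes. Robo1 and Plxna2 led with 10 each, followed by Sema6a and Sema6d with 5 and by Epha4, Efna5 and Robo2 with 4. All 7 of these genes were 100 kb or longer, and this share was not compared by length class.

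Many of these regions were far from the gene. The middle was over 100 kb from the 5′ end for 36 of 68 regions (52.9%, 41.2 to 64.3), against 29.4% of all ROSE regions, and was inside the member for 35. Robo1 and Robo2, receptors for Slits on growing axons, had a median distance of 406.7 kb over their 14 regions. Their best rank was 2973, their median Med1 signal per kb was 199.9 with IgG at 75.9, and 3 of the 14 held a Med1 site. The 10 regions of Plxna2 had a median Med1 signal of 509.2 per kb with IgG at 193.3, and 6 held a Med1 site. By overlap in place of nearness, 45 regions overlapped the body of a member, 9 of them nearest to another gene's 5′ end.

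In signal, the members' regions were close to all regions. The median Med1 signal per kb was 327.2 against 366.4, the median IgG signal per kb 130.4 against 131.7, and the median ratio of Med1 to IgG 2.75 against 2.81. Within the members the ratio was lowest in a region of Epha4, where Med1 was below IgG at 0.219, and Med1 was also below IgG in a region each of Sema6a and Robo1. Regions of very low IgG had the highest ratios, 49.4 at Sema3d, 23.6 at Robo1 and 22.1 at Sema4d, and these ratios rest on the IgG value. The region of Ephb2 had an IgG signal of 0 and no ratio. Among the more abundant signals, the region within Plxnc1, the receptor of Sema7a, had Med1 at 973.5 and IgG at 110.2 per kb, an 8.83-fold excess. Ephb3 had 2 regions of ranks 1368 and 1407 with a median Med1 signal of 897.6 and IgG signal of 242.1 per kb, the highest of any Eph receptor.

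**Figure D4:**
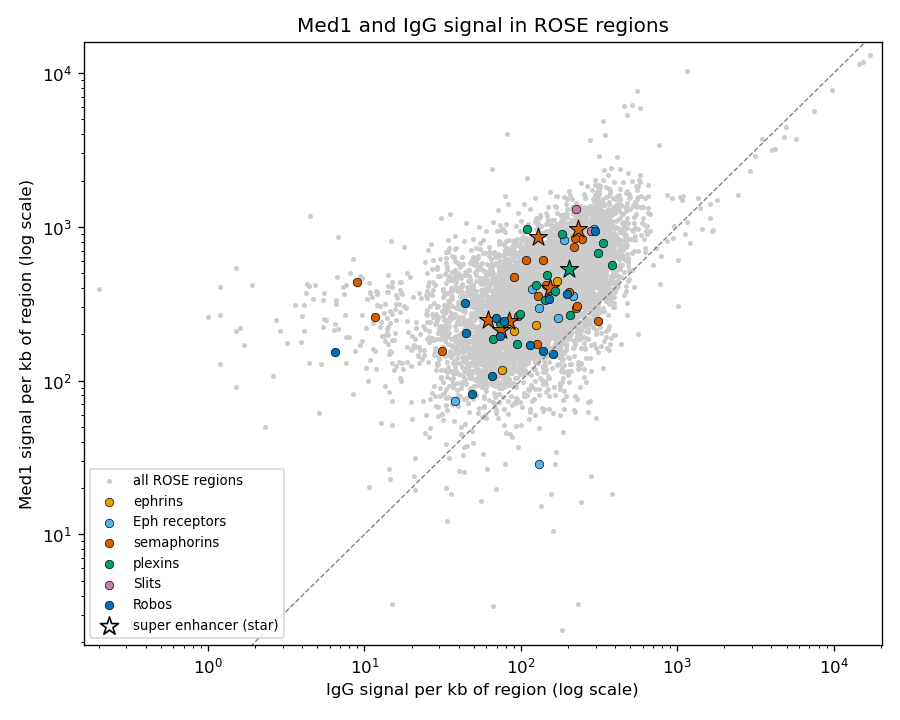
Med1 signal per kb against IgG signal per kb in ROSE regions, both on log scales, with regions nearest to axon guidance genes colored by group, SEs as stars and all regions with both signals above 0 in gray. The dashed line marks equal signals. Colored points spread through the gray cloud, and 3 of the 68 regions have Med1 below IgG.

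A Med1 site was in 34 of the 68 regions (50.0%, 38.4 to 61.6) against 53.9% of all regions, a Carm1 site in 31 (45.6%, 34.3 to 57.3) against 33.4%, and a Jmjd1c site in 26 (38.2%, 27.6 to 50.1) against 38.7%. All 3 factors were in 16 regions (23.5%, 15.0 to 34.9) against 19.4%, and no factor in 24 (35.3%, 25.0 to 47.2) against 32.8%. Carm1 or Jmjd1c without Med1 was in 10 (14.7%, 8.19 to 25.0) against 13.2%. The interval for Carm1 began just above the share of all regions, and Plxna2 alone gave 7 of the 31 regions with Carm1. Without Plxna2, a Carm1 site was in 24 of 58 regions (41.4%, 29.6 to 54.2), an interval that includes 33.4%.

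The motifs were counted within 100 bp of the middle of the 90 Carm1 and Jmjd1c sites of the members. A SOX motif was found in 33 (36.7%, 27.4 to 47.0) against 32.7% of all 16837 Carm1 and Jmjd1c sites, an NFI core in 46 (51.1%, 41.0 to 61.2) against 47.4%, and an E-box in 52 (57.8%, 47.5 to 67.5) against 50.2%. At Carm1 sites alone, 25 of 42 had an E-box (59.5%, 44.5 to 73.0) against 47.6%, and 18 a SOX motif (42.9%, 29.1 to 57.8) against 31.5%. At Jmjd1c sites, 27 of 48 had an E-box (56.2%, 42.3 to 69.3) against 53.1%, and 15 a SOX motif (31.2%, 20.0 to 45.3) against 34.1%. All of these intervals included the share over all sites. Sites of the factors that overlap share their sequence, so the 90 are not independent.

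Other genes of the pathway were read from a list of 62 genes, of which 61 were matched, among them netrins and their receptors, neuropilins, repulsive guidance molecules and intracellular effectors. This list was written with results of these data known. A promoter Med1 site was found in 33 of 61 (54.1%, 41.7 to 66.0) against 41.6% of all genes, a Carm1 site in 4 (6.56%, 2.58 to 15.7) against 9.78%, and a Jmjd1c site in 3 (4.92%, 1.69 to 13.5) against 8.62%. All 3 factors were at 0, against 2.44% of all genes. A ROSE region was nearest to 36 (59.0%, 46.5 to 70.5) against 21.6%, and an SE to 4 (6.56%, 2.58 to 15.7) against 1.8%. Of the listed genes 35 were 100 kb or longer, and among these a region was nearest to 26 (74.3%, 57.9 to 85.8) against 49.4% of all such genes, and an SE to 4 (11.4%, 4.54 to 25.9) against 3.29%. The 4 were intracellular, Srgap2 (best rank 67) and Srgap3 (rank 265), which are GTPase-activating proteins that bind Robo receptors, the chimaerin Chn2 (rank 175) and the exchange factor Vav3 (rank 357). Srgap2 had 10 Med1 body sites and Srgap3 had 5. Srgap1, also on the list, had 2 Med1 body sites, no promoter Med1 site and 1 region of rank 7675. The regions of the Robo receptors themselves ranked no higher than 2973. Of the neuropilins, the co-receptors of class 3 semaphorins, Nrp2 had 2 promoter Med1 sites and 3 regions with a best rank of 1445, and Nrp1 had no promoter site and 1 region of rank 6195. No netrin or netrin receptor was nearest to an SE.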

How the data were processed

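ChIP-seq of untreated NS-5 cells was used, with 1 sample each for Med1, Carm1, Jmjd1c and IgG. Alignment to mm9 was done by the authors with Bowtie 0.12.7, who removed duplicates (Picard 1.81 in the submitters' notes) and called sites against IgG with MACS 1.4.2. The threshold of the Carm1 and Jmjd1c lists is not settled here. ROSE left out enhancers within 1 kb of a TSS before joining, but a joined region can span a TSS, as at Sema3f. The ROSE table deposited by the authors holds Med1 and IgG signal per region. Its typical enhancers count starts from 0 and its SEs from 1, which was corrected.

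GENCODE vM1 gave gene positions, with the longest record per symbol. Promoter sites overlap the 5′ end ± 1.5 kb by at least 1 bp, body sites overlap the rest of the gene, and a site can do both. Regions went to the nearest protein-coding 5′ end from their middle, active or not, whereas the paper took the closest gene active in its RNA-seq data. Named genes were those with an SE, with 3 factors at the promoter, with most body sites, or with nothing, and the other members by family. The members and lists were chosen with earlier results of these data known. Shares carry Wilson 95% intervals, and the Carm1 and Jmjd1c densities of long members exact Poisson 95% intervals. Counting was tested on simulated data. Python 3.11.15, numpy 2.4.6, pandas 2.3.3, scipy 1.17.1, pysam 0.24.0 and matplotlib 3.10.9 were used. Alternatives covered windows, overlap, transcripts, site subsets, ranking and motif windows.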

Additional observations from a re-analysis of the deposited data

How the results depend on the processing

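Of 42 alternative settings, 13 moved a count by over 1.5 times or a share, ratio or density out of its interval, and 29 stayed within these limits. The causes were not tested. With the first 10000 Med1 sites of the list, 14 members had Med1 at the promoter in place of 25. Carm1 was at 6 promoters with a window of 5 kb and at 6 with any transcript's 5′ end, in place of 3. Jmjd1c was at 8 promoters with any transcript and at 3 with the wider sites alone, in place of 5. With the wider sites alone, 15 members had a Med1 and 14 a Jmjd1c body site, in place of 28 and 23. For these counts of members, the share of all genes was taken under the main setting only. Taking regions that overlap the gene gave 45 regions and 4 SEs, and ranking by Med1 minus IgG per kb gave 4 SEs, in place of 68 and 7. In regions with a Med1 site the median ratio of Med1 to IgG was 3.31. The SOX share was 23.3% within 50 bp, against 19.0% of all Carm1 and Jmjd1c sites. Over whole sites it was 52.2% against 43.8%, so the share of all sites moved with the window as well. The values without Plxna2 were chosen after seeing the data. No paired analysis was possible because each antibody has 1 sample. Depth is unknown, so a promoter or body without a listed site may still be bound below the threshold of the list.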
